A study of Homo sapiens with 12 samples.

Results

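Selenoprotein genes recode an in-frame UGA codon, which elsewhere ends translation, as selenocysteine. The 10 genes described here were taken from a list of symbols (SELENOP, GPX1, GPX4, TXNRD1, SELENOT, SELENOK, SELENOS, SELENOW, SELENOF and SEPHS2), joined through GENCODE release 44 to the identifiers of the deposited count files. All 10 were found among the 58721 genes in the files, and the other 15 of 25 listed human selenoprotein genes served for comparison. The rule uses no measured value. Ribosome profiling was performed in HepG2, an established human liver cancer cell line, transfected with a control siRNA (siControl) or with one that targets IGF2BP3 (siIGF2BP3), a member of the IGF2BP group of RNA-binding proteins. Each condition had Input libraries, read here as transcript abundance, and RPF libraries of the fragments that ribosomes protect from RNase I, which gives 4 groups of 3 libraries. All cells received 100 µg/mL cycloheximide, which stalls elongating ribosomes, for 4 min, and the RPF libraries hold gel-selected fragments of 28 to 30 nt. The comparison asked whether loss of IGF2BP3 altered the transcript level, the footprint level or the translational efficiency (TE, RPF relative to Input) of these genes.

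A selenocysteine UGA is read by a dedicated tRNA, the elongation factor EEFSEC and the binding protein SECISBP2, which recognises a stem-loop (SECIS element) in the 3′ untranslated region. The serine on this tRNA is converted to selenocysteine with selenophosphate, the product of SEPHS2, itself a selenoprotein. When recoding fails the UGA acts as a stop codon, and a stop upstream of an exon junction can expose the transcript to nonsense-mediated decay. Hepatocytes make most of the selenoprotein P in blood, the carrier that delivers selenium to other organs.

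The members differ in how many UGA codons a ribosome must pass and where these lie. In the GENCODE coding sequences SELENOP held 10 selenocysteine codons in 381 codons, the first at codon 59 and the remaining ones between codons 300 and 378. The other 9 genes held 1 each. In GPX1 it lay at codon 49 of 203, in GPX4 at codon 73 of 197, in SELENOT at codon 49 of 195, in SELENOF at codon 96 of 165, in SELENOW at codon 13 of 87 and in SEPHS2 at codon 60 of 448. In TXNRD1, SELENOK and SELENOS it lay at the end of the protein, at codon 648 of 649, codon 92 of 94 and codon 188 of 189. SEPHS2 is the member whose reading frame also ends in UGA, so the same triplet is recoded at codon 60 and stops translation at the end of the frame. Every one of the 19 UGA sites lay inside exons that the deposited files counted.

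**Figure D1:**
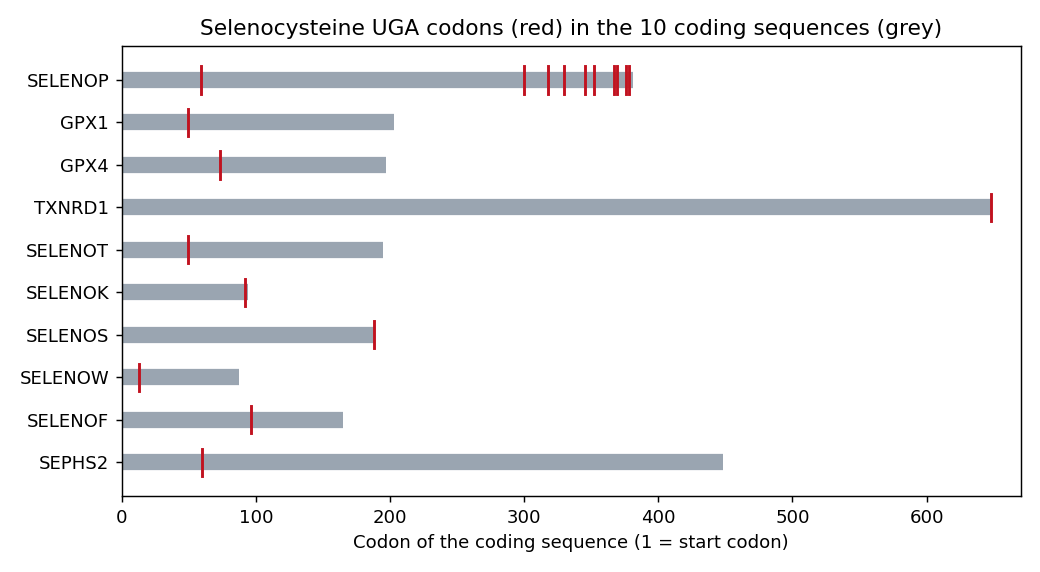
Position of each selenocysteine UGA codon (red line) along the coding sequence (grey bar) of the 10 genes, with codons counted from 1 at the start codon on the horizontal axis. SELENOP carries 10 lines, of which 9 lie between codons 300 and 378, and every other gene carries 1.

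Some of the 19 recoded sites are printed to show the sequence a ribosome meets, read 5′ to 3′ on the coding strand from the GENCODE transcripts as DNA, with 12 nt on each side and the recoded triplet in capitals. They were chosen as the SELENOP sites at the start, the middle and the end of the row, and 5 genes with 1 site, early, late or in SELENOF with a different next base.
SELENOP site 1: cttcaagccagcTGAtacctgtgcata
SELENOP site 4: tctttatgtagcTGAcagggacttcgg
SELENOP site 10: aaaaagtgagaaTGAccttcaaactaa
GPX1: gtggcgtccctcTGAggcaccacggtc
GPX4: gtggcctcccagTGAggcaagaccgaa
TXNRD1: caggctggctgcTGAggttaagcccca
SELENOF: gaagtttgtggaTGAaaattgggaagg
SEPHS2: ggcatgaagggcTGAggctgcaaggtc
The 3 SELENOP codons lie in coding exons on the minus strand of hg38 chromosome 5, at 42808177 to 42808179, 42800876 to 42800878 and 42800732 to 42800734, and the window of site 10 also holds site 9 in lower case. Those of GPX1 (chromosome 3, 49358132 to 49358134), SELENOF (chromosome 1, 86880690 to 86880692) and SEPHS2 (chromosome 16, 30445548 to 30445550) are on the minus strand, and those of GPX4 (chromosome 19, 1105403 to 1105405) and TXNRD1 (chromosome 12, 104348413 to 104348415) on the plus strand.

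The base after the triplet differed between SELENOP and the others. It was C at 6 of 10 SELENOP sites, U at 2, A at 1 and G at 1, whereas it was G at 8 of the 9 single sites and A at the remaining one, in SELENOF. C never followed a single site among the members, but it followed 6 of 17 sites in the other 15 selenoprotein genes, where G also followed 6. Of 9663 UGA stop codons of canonical protein-coding transcripts, 38.4% were followed by G and 20.4% by C. The files hold 1 total per gene and no position along the transcript, so footprints before and after a UGA cannot be separated and recoding itself was not measured.

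Total counts ran from 11219750 to 14797573 in Input and from 13036423 to 31510601 in RPF libraries, and the 10 genes took between 0.235% and 0.258% of Input counts and between 0.151% and 0.155% of RPF counts. Values are given as CPM, the count relative to a fixed library total, with the SD over libraries. siControl RPF replicates 2 and 3 differed by less than the sampling noise (mean chi-square per gene 0.941) and were counted as 1 sample in each mean, so n = 2 there. The main fits kept them as separate libraries, so their p-values count 2 near-identical libraries as replicates. Fits with the 2 summed are given as an alternative. siIGF2BP3 RPF replicate 1 stood apart from replicates 2 and 3 (mean chi-square 19.9 and 21.5, against 1.15 between those 2), and results that rest on it are given with and without it. Without it the group holds replicates 2 and 3 alone, which differed by little more than sampling noise. P-values of fits without it rest in part on that small spread, so their calls are not read as replicated results. IGF2BP3 itself lay between 127 and 133 CPM in siControl Input and between 97.9 and 105 CPM in siIGF2BP3 Input, and between 74.6 and 78.1 against 21.9 and 28.0 CPM in RPF, so knockdown was partial at the transcript level. The 8 hepatocyte markers, among them ALB and AFP, summed to between 51929 and 91984 CPM. Of the 9 markers of other cell types CD3E and DCN were at 0 in all 12 libraries and PTPRC in 11. CD68, at 19.7 to 27.9 CPM, was the only one of these 9 above 5 CPM. Labels give no separate cultures for the replicates, so p-values measure the spread between these libraries, which may be technical.

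Per length, GPX4 was the most abundant transcript of the set and SELENOP carried the most footprints. In siControl Input, in CPM per kb of the canonical transcript, GPX4 stood at 877 ± 70.7 (SD, n = 3), SELENOP at 420 ± 11.7 and SEPHS2 at 152 ± 0.419. Then came TXNRD1 at 68.6, SELENOF at 57.9, GPX1 at 45.8, SELENOK at 38.9, SELENOS at 37.2, SELENOT at 21.3 and SELENOW at 15.1 CPM per kb. SELENOK and SELENOS were the one pair of neighbours in that order whose libraries overlapped. Scaled instead to all counted exons, which are longer for several genes (5688 nt against 2056 nt for SELENOP), GPX4, SELENOP and SEPHS2 remained the top 3 in the same order, at 369, 152 and 134 CPM per kb.

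The footprint order was different. In siControl RPF, in CPM per kb of coding sequence, SELENOP stood at 591 ± 3.81 (SD, n = 2), above GPX4 at 309 ± 5.62, SELENOF at 268 ± 1.46 and SELENOK at 174 ± 6.36. GPX1 followed at 123, SELENOS at 107, TXNRD1 at 85.9, SEPHS2 at 84.5, SELENOW at 60.6 and SELENOT at 57.9 CPM per kb, and only TXNRD1 and SEPHS2 overlapped as neighbours. After knockdown the footprint order of all 10 was the same as in siControl, and in Input SELENOS and SELENOK changed places.

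**Figure D2:**
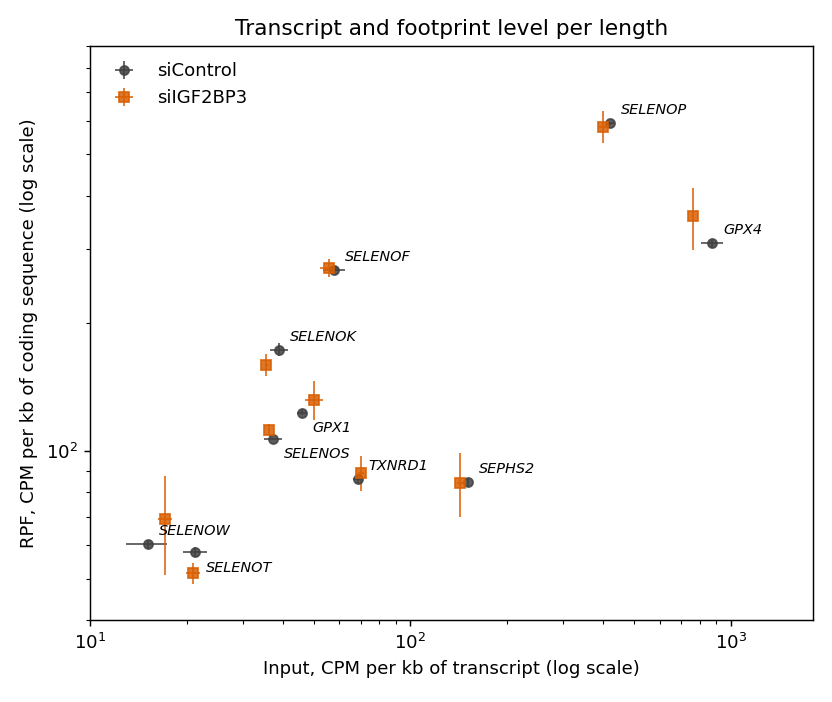
Mean RPF level in CPM per kb of coding sequence (vertical, log scale) against mean Input level in CPM per kb of transcript (horizontal, log scale) for the 10 genes, in siControl (circles) and siIGF2BP3 (squares), with bars for the SD over libraries. SELENOP is highest on the footprint axis at 591 and GPX4 highest on the transcript axis at 877 in siControl, and SEPHS2 lies low on the footprint axis (84.5) for its transcript level (152).

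SELENOP encodes selenoprotein P. Its Input level was 889, 861 and 841 CPM in siControl replicates 1, 2 and 3 and 816, 802 and 847 CPM in siIGF2BP3. Its RPF level was 675, 675 and 687 CPM in siControl and 599, 696 and 702 CPM in siIGF2BP3. The groups overlapped in both assays, and siIGF2BP3 RPF replicate 1 was the lowest RPF library. The ratio of mean RPF to mean Input was 0.785 in siControl and 0.810 in siIGF2BP3.

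GPX4 reduces lipid hydroperoxides and protects cells from ferroptosis. It was at 681, 800 and 756 CPM (siControl) and 652, 653 and 646 CPM (siIGF2BP3) among Input libraries, so every knockdown library lay below every control library. In RPF it was at 186, 181 and 181 CPM (siControl) and 253, 192 and 191 CPM (siIGF2BP3), so there every knockdown library lay above every control library, replicate 1 by far the most. GPX1, the cytosolic glutathione peroxidase, had low transcript and higher footprint values. It stood at 42.3, 41.9 and 39.4 CPM (siControl) and 43.9, 42.9 and 48.5 CPM (siIGF2BP3) among Input libraries, and at 74.8, 75.7 and 76.6 CPM (siControl) and 89.6, 80.9 and 72.4 CPM (siIGF2BP3) among RPF libraries. The Input groups did not overlap, with the knockdown libraries above, and the RPF groups overlapped.

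TXNRD1, the cytosolic thioredoxin reductase, uses a selenocysteine next to its last residue for catalysis. It was at 274, 255 and 265 CPM (siControl) and 277, 267 and 269 CPM (siIGF2BP3) among Input libraries. Its footprints were at 170, 170 and 161 CPM (siControl) and 154, 181 and 186 CPM (siIGF2BP3). siIGF2BP3 RPF replicate 1 fell below the control libraries and the other 2 knockdown libraries above them. SEPHS2 makes the selenophosphate on which the whole set depends. It was at 340, 341 and 341 CPM (siControl) and 329, 314 and 320 CPM (siIGF2BP3) among Input libraries, without overlap. Its RPF values were 116, 115 and 109 CPM in siControl and 136, 106 and 99.5 CPM in siIGF2BP3, with replicate 1 above and replicates 2 and 3 below all control libraries.

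SELENOF, SELENOT, SELENOK and SELENOS are proteins of the endoplasmic reticulum (ER). SELENOF, a thioredoxin-like protein that binds the folding sensor UGGT1, was at 86.0, 97.4 and 84.4 CPM (siControl) and 83.8, 82.1 and 92.6 CPM (siIGF2BP3) among Input libraries. Its RPF level was 134, 129 and 136 CPM in siControl and 127, 137 and 140 CPM in siIGF2BP3. Neither assay separated the conditions. SELENOT, a membrane thioredoxin-like oxidoreductase, was at 80.8, 69.7 and 69.4 CPM (siControl) and 68.5, 75.4 and 72.7 CPM (siIGF2BP3) among Input libraries. In RPF it was at 34.7, 34.0 and 32.8 CPM (siControl) and 32.3, 29.8 and 28.9 CPM (siIGF2BP3), each knockdown library below each control library.

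SELENOK and SELENOS act at the ER membrane, SELENOK with the palmitoyltransferase ZDHHC6 and both in the degradation of misfolded ER proteins. SELENOK was at 55.7, 56.8 and 62.5 CPM (siControl) and 53.3, 53.6 and 52.4 CPM (siIGF2BP3) among Input libraries. Its footprints were at 48.2, 49.6 and 51.9 CPM (siControl) and 42.3, 46.9 and 47.1 CPM (siIGF2BP3). The knockdown libraries thus lay below the control libraries in both assays. SELENOS was at 43.1, 48.6 and 44.4 CPM (siControl) and 44.03, 44.5 and 43.9 CPM (siIGF2BP3) among Input libraries. Its footprints were at 60.8, 61.4 and 61.2 CPM (siControl) and 66.2, 63.8 and 62.2 CPM (siIGF2BP3), with all knockdown libraries above. SELENOW, a small cytosolic thioredoxin-like protein, was the least abundant member. It stood at 9.59, 12.03 and 12.8 CPM (siControl) and 12.5, 12.9 and 13.7 CPM (siIGF2BP3) among Input libraries, and at 15.7, 16.5 and 16.02 CPM (siControl) and 23.9, 15.4 and 15.7 CPM (siIGF2BP3) among RPF libraries. Its lowest count in a library was 120, and siIGF2BP3 RPF replicate 1 was again the library that stood out.

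In unperturbed cells the members spread widely in RPF relative to Input, here not scaled to coding or transcript length. The ratio of mean RPF CPM to mean Input CPM in siControl was 0.246 for GPX4, 0.334 for SEPHS2, 0.465 for SELENOT, 0.633 for TXNRD1, 0.785 for SELENOP and 0.848 for SELENOK. It was 1.35 for SELENOS, 1.39 for SELENOW, 1.49 for SELENOF and 1.83 for GPX1. Of 9361 protein-coding genes with at least 5 CPM in each assay, 7.97% had a lower ratio than GPX4 and 13.8% a lower one than SEPHS2, against 42.6% for SELENOP and 78.9% for GPX1. On this unscaled ratio the 2 glutathione peroxidases of the set lay toward opposite ends, and both carry the recoded codon before the middle of the frame. The order changed with footprints taken per coding length and Input per transcript length. GPX4 and SEPHS2 stayed low, with 3.88% and 8.72% of genes lower, and SELENOP was at 32.6%. GPX1 moved down to 60.3%, SELENOT moved from 22.5% to 60.7% and SELENOK from 45.9% to 79.7%. SELENOF was then highest, at 80.8%.

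The same ratio was tested in 1 fit over the 12 libraries, scaled so that the median gene lay near 0 (edgeR quasi-likelihood test, Benjamini-Hochberg adjustment over 13395 genes). In siControl 4 members were higher in RPF and 5 lower, where 43.4% of all genes were called higher and 43.4% lower, so the count of calls does not set the members apart. GPX4 had the lowest value, a log2 value of -1.88 ± 0.08 (SE, adjusted p = 9.93e-15, edgeR), and GPX1 the highest, 1.02 ± 0.07 (SE, adjusted p = 1.22e-11, edgeR). SELENOP lay at -0.20 ± 0.06 (SE, adjusted p = 0.00279, edgeR), and SELENOK at -0.08 ± 0.07 did not pass (SE, adjusted p = 0.261, edgeR). In siIGF2BP3 4 members were higher (42.9% of all genes) and 4 lower (43.7% of all genes). SELENOP, at -0.10 ± 0.06 (SE, adjusted p = 0.121, edgeR), no longer passed there, but the difference between conditions is the TE change given below, which was not called. SELENOK changed direction when reads on its pseudogenes were added, to 0.14 in siControl and 0.21 in siIGF2BP3 (adjusted p = 0.0456 and 0.00518, edgeR).

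**Figure D3:**
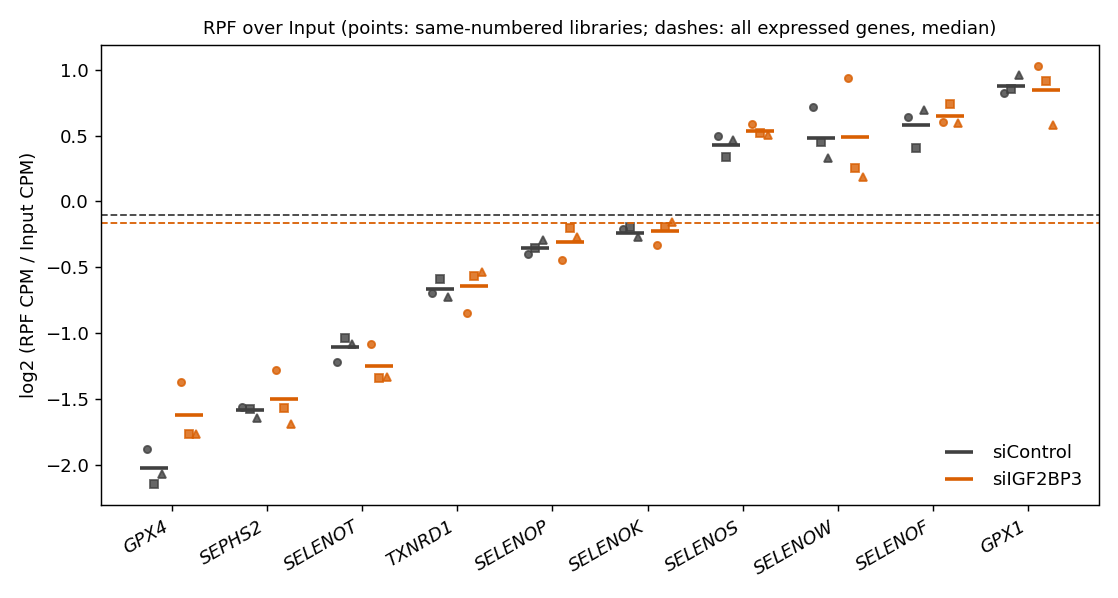
log2 of RPF CPM over Input CPM for each gene, ordered by its siControl value, with horizontal marks for the ratio of group means, points for libraries of the same number (circle, square and triangle for 1, 2 and 3) and dashed lines for the median over expressed protein-coding genes in each condition. GPX4 (0.246 on the linear scale) and SEPHS2 (0.334) lie lowest and GPX1 (1.83) highest in siControl.

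On the ratio not scaled to length, SELENOP, with its 10 UGA codons, was in the middle of the set. On the log2 scale its RPF over Input ratio minus the median of the 9 genes with 1 selenocysteine was -0.11 in siControl and -0.08 in siIGF2BP3. These 2 values come from ratios of group means. Same-numbered libraries 1, 2 and 3 gave -0.19, -0.16 and -0.03 in siControl (SD 0.07, n = 2, with 2 and 3 averaged). In siIGF2BP3 they gave -0.11, -0.01 and -0.12 (SD 0.06, n = 3). The labels do not pair Input and RPF libraries by number. Of the 9, 4 had a lower siControl ratio and 5 a higher one. Its level exceeded the median of the 9 by 3.46 to 3.63 log2 CPM in siControl Input and by 3.16 to 3.17 in siControl RPF. With footprints taken per coding length and Input per transcript length the difference from the median of the 9 was -0.95 in siControl and -0.86 in siIGF2BP3, and with pseudogene reads added it was -0.33 and -0.30. The sign was the same on all 3 scales, and the size was not. No test was made, since SELENOP is a single gene and the 9 were named together with it.

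Position of the UGA did not order the ratios. The 3 genes with the codon at the end of the frame had ratios of 0.633 (TXNRD1), 0.848 (SELENOK) and 1.35 (SELENOS) in siControl, inside the span of 0.246 to 1.83 of the 6 with an early or central single site. Across the 10 genes the log2 ratio and the percent of the protein after the first selenocysteine had Pearson's r = -0.18 and Spearman's rho = -0.07 in siControl, and the log2 ratio and the Input level per kb had r = -0.60 and rho = -0.49. These are descriptions over 10 genes measured in the same libraries, and the Input level is part of both measures in the second. Among the other selenoproteins GPX3, the plasma glutathione peroxidase, was low like GPX4 (ratio 0.211), and MSRB1 and TXNRD2 were far above any member (5.29 and 5.67). TXNRD3 and DIO1 were also above every member (3.29 and 2.82). The siControl Input means of TXNRD2 and TXNRD3 were low, at 5.71 and 2.48 CPM, and the ratio of TXNRD2 was 3.74 in siIGF2BP3.

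To ask how transcripts responded to knockdown, the 6 Input libraries were compared. GPX4 fell by 0.25 ± 0.05 in log2 terms (SE, adjusted p = 0.00359, edgeR quasi-likelihood test), from 746 ± 60.2 to 650 ± 3.63 CPM (SD, n = 3 each). In a bulk culture, fewer cells with the transcript and less of it per cell cannot be told apart. GPX4 was the 1 member of 10 called, where 5.96% of 14759 genes were called and 1.9% called lower. No member was called higher. SEPHS2 (-0.13 ± 0.04, SE, adjusted p = 0.0621, edgeR), SELENOK (-0.18 ± 0.06, SE, adjusted p = 0.0818, edgeR) and SELENOP (-0.12 ± 0.04, SE, adjusted p = 0.102, edgeR) missed the threshold. The values of the remaining 6 ran from -0.10 for SELENOF to 0.13 for SELENOW. The libraries of the 2 conditions did not overlap for 4 members, GPX4, SELENOK and SEPHS2 below and GPX1 above, against 25.0% of all genes tested. The members' median was -0.10 against 0.00 for all genes, and 8 of 10 estimates were negative. The call of GPX4 held under all 15 alternatives, between -0.32 and -0.19, and leaving out siControl Input replicate 1, its lowest control library, gave -0.32.

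Footprints gave no call among the members. Of 20192 genes tested in RPF 1.66% were called and 0 of 10 members, none of them at an unadjusted p under 0.05 (edgeR), and DESeq2 also called 0. GPX4 had the highest value, 0.23 ± 0.12 (SE, adjusted p = 0.399, edgeR), and SELENOT the lowest, -0.14 ± 0.07 (SE, adjusted p = 0.365, edgeR). The groups did not overlap for 4 members, GPX4 and SELENOS above and SELENOT and SELENOK below, against 25.7% of all genes. These results rested on siIGF2BP3 RPF replicate 1. Without it 16.5% of all genes and 3 members were called, TXNRD1 at 0.13 ± 0.03 (SE, adjusted p = 0.0131, edgeR), SELENOT at -0.21 ± 0.04 (SE, adjusted p = 0.00577, edgeR) and SEPHS2 at -0.15 ± 0.04 (SE, adjusted p = 0.0169, edgeR). The SEPHS2 value had been 0.02 with the library in, and GPX4 went from 0.23 to 0.07. Counting the near-identical siControl replicates 2 and 3 as 1 library at the same time left the same 3 members called. The share of all genes called in that fit is not given here. The count is therefore not read as a result about the members. These fits hold siIGF2BP3 RPF replicates 2 and 3 as the only knockdown libraries, whose spread was close to sampling noise (mean chi-square 1.15).

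TE asks whether footprints changed by more or less than transcripts. No member was called, where 2.21% of 13395 genes were. The nearest was GPX4, whose transcript fell while its footprints stood higher, with a log2 TE change of 0.47 ± 0.14 (SE, unadjusted p = 0.00391, adjusted p = 0.0934, edgeR interaction term). It was the one member with an unadjusted p under 0.05, and DESeq2 called it, at 0.48 (adjusted p = 0.0170). It was also called with the replicate number as a block (0.46, adjusted p = 0.0411, edgeR) and without siIGF2BP3 RPF replicate 1 (0.32, adjusted p = 0.00214, edgeR), where 9.99% of all genes and 2 members were called. The other was SELENOP, at 0.17 ± 0.05 without that library (SE, adjusted p = 0.0294, edgeR) against 0.11 ± 0.07 with it (SE, adjusted p = 0.497, edgeR). GPX4 was called under 6 of 26 alternatives, over which its value ran from 0.32 to 0.55 and the adjusted p from 0.00214 to 0.279. The other members ran from -0.08 for SELENOT to 0.17 for SELENOS, and 9 of 10 estimates were positive, with a median of 0.10 against 0.00 for all genes. This count of signs is not 10 separate observations, since all members share the 12 libraries.

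**Figure D4:**
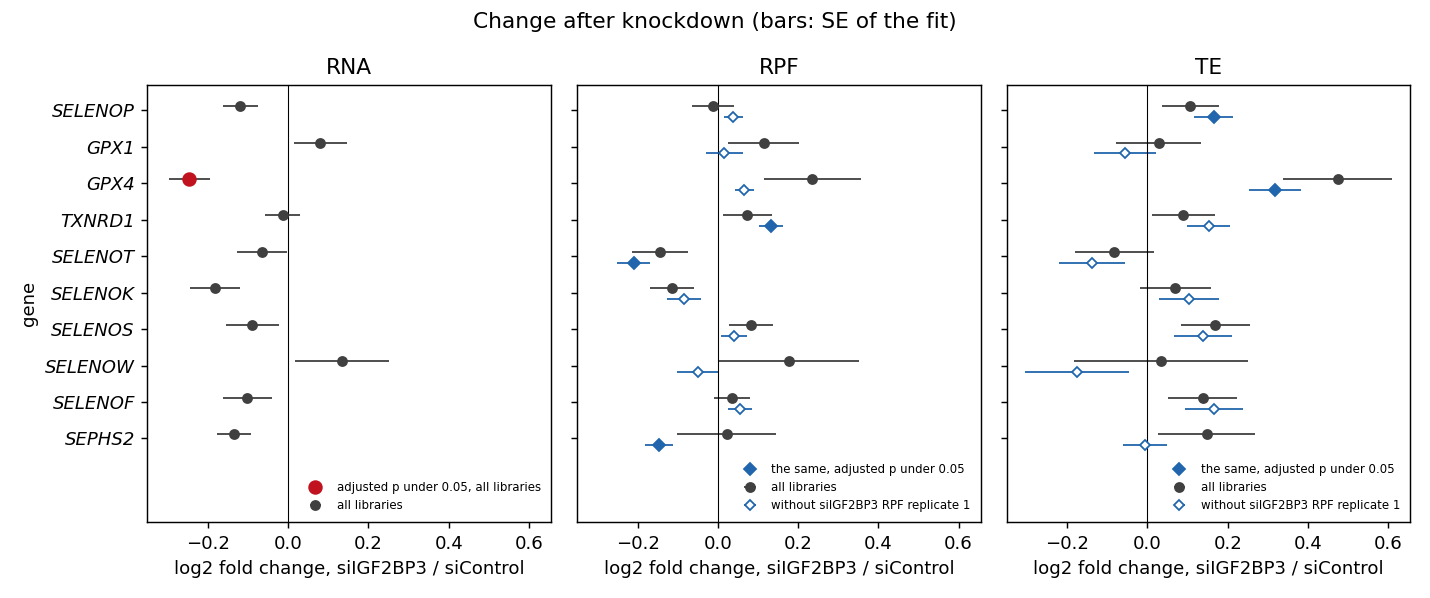
log2 fold change of siIGF2BP3 over siControl for each gene in RNA, RPF and TE (horizontal axis), with bars for the SE of the fit. Black circles use all libraries, the red circle is an adjusted p under 0.05 with all libraries (GPX4 in RNA, -0.25), and blue diamonds leave out siIGF2BP3 RPF replicate 1, filled where the adjusted p is under 0.05.

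All 15 genes listed for the machinery that reads UGA as selenocysteine were tested, with medians of 0.02 in RNA, -0.01 in RPF and -0.06 in TE, against 0.00, 0.01 and 0.00 over all genes. In RNA 1 rose, TRIT1, which modifies the selenocysteine tRNA (0.31 ± 0.09, SE, adjusted p = 0.0406, edgeR), and 1 fell, NCL, a nucleolar protein that can bind selenoprotein transcripts (-0.17 ± 0.04, SE, adjusted p = 0.0170, edgeR), which makes 2 of 15 where 5.96% of all genes were called. In RPF TRIT1 rose, at 0.44 ± 0.08 (SE, adjusted p = 0.0470, edgeR), and no other gene of the list was called, where 1.66% of all genes were. In TE none was called. TRIT1 was at 19.1, 22.4 and 24.4 CPM (siControl) and 29.5, 27.7 and 27.2 CPM (siIGF2BP3) among Input libraries, without overlap. Its RNA call was lost with DESeq2 (adjusted p = 0.0721) and in all fits that left out 1 Input library (adjusted p = 0.0668 to 0.191, edgeR) except the one without siControl Input replicate 3. Its RPF call was lost with upper-quartile factors, over protein-coding genes only and with the gene length offset (adjusted p = 0.0600, 0.0503 and 0.0506, edgeR). It was also lost with the replicate number as a block (adjusted p = 0.0810, edgeR) and with the siControl RPF replicates 2 and 3 summed (adjusted p = 0.199, edgeR). The same held without any 1 RPF library (adjusted p = 0.126 to 0.256, edgeR) other than siIGF2BP3 replicate 1. The NCL call in RNA was lost without siControl Input replicate 3 (adjusted p = 0.140, edgeR) and without siIGF2BP3 Input replicate 2 or 3 (adjusted p = 0.0669 and 0.0832, edgeR). Without siIGF2BP3 RPF replicate 1, where 16.5% of all genes were called in RPF, TRIT1 rose (0.48 ± 0.07, SE, adjusted p = 0.00108, edgeR) and NCL and SECISBP2L, a relative of SECISBP2, fell (-0.22 and -0.24, adjusted p = 0.00157 and 0.0260, edgeR). None of the 15 was called in TE in that fit.

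Of the 15 other selenoproteins, 11 could be tested and none was called in RNA, RPF or TE. GPX6, DIO2, DIO3 and SELENOV were too low, with at most 0.0826 CPM in any library. The median over the 11 was -0.02 for RNA, 0.06 for RPF and 0.07 for TE. Without siIGF2BP3 RPF replicate 1, 2 of the 11 rose and 3 fell in RPF, where 16.5% of all genes were called. In TE 3 rose and 2 fell, where 9.99% of all genes were called. Of 20 tested genes of the thioredoxin and glutathione system, 1 was called in RNA, PRDX4, an ER peroxiredoxin (-0.21 ± 0.06, SE, adjusted p = 0.0480, edgeR), where 5.96% of all genes were. That call was lost with DESeq2 (adjusted p = 0.0594), with the gene length offset (adjusted p = 0.0608, edgeR) and without siControl Input replicate 2 or 3 or siIGF2BP3 Input replicate 1 or 3 (adjusted p = 0.120 to 0.202, edgeR).

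The same 2 of these 20 were called in RPF and TE, where 1.66% and 2.21% of all genes were called and the medians of the 20 were 0.01 and 0.05. TXNIP, which binds and inhibits thioredoxin, fell by 0.41 ± 0.06 in RPF and by 0.51 ± 0.08 in TE, both in log2 units (SE, adjusted p = 0.0176 and 0.00287, edgeR). SLC7A11, the cystine importer that supplies glutathione synthesis, rose by 0.46 ± 0.07 in RPF and by 0.41 ± 0.09 in TE (SE, adjusted p = 0.0224 and 0.0218, edgeR). SLC7A11 footprints were at 43.8, 44.02 and 44.2 CPM (siControl) and 52.4, 64.1 and 62.6 CPM (siIGF2BP3), without overlap. With the siControl RPF replicates 2 and 3 summed, the RPF calls of both were lost (adjusted p = 0.116 and 0.134, edgeR), the TE call of TXNIP held (0.0107) and that of SLC7A11 was at 0.0536. The RPF call of TXNIP was also lost without any 1 siControl RPF library or siIGF2BP3 RPF replicate 2 (adjusted p = 0.107 to 0.154, edgeR), and that of SLC7A11 without any 1 RPF library (adjusted p = 0.0878 to 0.172, edgeR) other than siIGF2BP3 replicate 1. The TE call of SLC7A11 was lost in 7 of the 12 fits that left out 1 library (adjusted p = 0.0562 to 0.0755, edgeR) and that of TXNIP in none. With limma on log2 ratios neither was called (adjusted p = 0.160 for TXNIP and 0.262 for SLC7A11). The TE call of SLC7A11 was also lost with a block for each condition and replicate number (adjusted p = 0.0838, edgeR).

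Without siIGF2BP3 RPF replicate 1, 3 of the 20 rose and 2 fell in RPF (16.5% of all genes called), and 4 rose and 1 fell in TE (9.99% of all genes called). In RPF SLC7A11 (0.52), GCLM, a subunit of the enzyme that starts glutathione synthesis (0.20), and TXN, thioredoxin (0.091), rose, and TXNIP (-0.38) and the peroxiredoxin PRDX2 (-0.14) fell. In TE SLC7A11 (0.48), PRDX4 (0.23), GCLM (0.21) and PRDX6 (0.16) rose and TXNIP (-0.47) fell. None of the 4 tested cysteine homologues (relatives of the selenoproteins with cysteine in place of selenocysteine) and none of the 8 ER partners, UGGT1 and ZDHHC6 among them, was called in RNA, RPF or TE with all libraries. Without siIGF2BP3 RPF replicate 1, no homologue was called in RPF or TE, and 2 ER partners were called in RPF and none in TE. These were DERL1, a channel component of ER-associated degradation (0.10 ± 0.03, SE, adjusted p = 0.0394, edgeR), and VCP, the ATPase that extracts its substrates (-0.15 ± 0.02, SE, adjusted p = 0.00198, edgeR). The homologues had medians of 0.11, 0.06 and -0.08 and the ER partners of -0.05, -0.01 and 0.05 in RNA, RPF and TE with all libraries.

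The genes whose pattern over the 12 libraries was nearest to that of SELENOP were ZDHHC5, TRAM2 and TMOD3. Their root mean square distance in centred log2 CPM was 0.04, 0.04 and 0.05, against a median of 0.41 over the 5528 genes with at least 20 CPM in each assay. They were picked as the smallest distances, so the contrast with the median was fixed by the choice. The distance includes the gap between Input and RPF as well as changes after knockdown, and shared regulation was not tested.

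Shared reads limit several footprint values. Many deposited counts are fractions, as splitting a read among alignments gives, and processed pseudogenes of 5 members carried counts. GPX1P1 and GPX1P2 held 17.6% and 8.67% as many RPF counts as GPX1 and 3.49% and 0% as many Input counts. SELENOTP1 held 18.8% as many RPF counts as SELENOT, and SELENOKP1 and SELENOKP2 9.89% and 6.96% as many as SELENOK, against at most 0.232% in Input for these 3. SEPHS2P1 held 0.912% for SEPHS2 in RPF. Part of these footprints may belong to the members, which was not tested, and adding them changed no call of a member in RNA, RPF or TE. Exons of SELENOP share 1452 nt with CCDC152 on the opposite strand (3.30 CPM in Input), and those of SELENOT share 61 nt with SERP1 (171 CPM). Whether the counting used strand is not given in the sources used here.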

How the data were processed

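Per the study's methods and the labels, Cutadapt trimming, STAR alignment to hg38 and featureCounts gene counting were the authors' steps. Versions, strand and multimapping options are not given in the sources used here, nor is how Input libraries were made. The deposited files hold estimated counts, many of them fractions, not scaled to depth. They were rounded, which changed library totals by at most 0.00475%. Identifiers were joined without version to GENCODE 44, and 99.1% matched. Sequences and codon positions came from GENCODE 44 transcripts.

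Tests used edgeR 4.0.16 in R 4.3.3: filterByExpr, TMM factors, robust quasi-likelihood fits and Benjamini-Hochberg adjustment over all genes tested, with a threshold of 0.05. RNA used 6 Input libraries, RPF 6 RPF libraries, and TE the interaction over 12 libraries, scaled within each assay. RPF against Input used TMM factors over 12 libraries. SE came from the estimate and its F statistic. Fits were tested on simulated counts.

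Members, lists and tests were chosen with earlier results of these data known. Among the other genes named are those of the lists that were called, neighbours in sequence, and the 3 nearest to SELENOP. Other selenoproteins were also named where their siControl ratio of RPF to Input lay below or above that of every member. One listed symbol (SOD2) found no identifier. CPM carries no TMM factors. Counting error is small at these depths, and reads had no molecular identifiers. Deviations of same-numbered RPF libraries correlated at 0.40, 0.35 and 0.15 between conditions, and those of Input libraries at 0.03, -0.01 and -0.04. Unlike-numbered RPF libraries 2 and 3 correlated at 0.25 and 0.21, above the 0.15 of the pair numbered 3. Every same-numbered RPF pair thus exceeded 0.1, but so did those unlike-numbered pairs, and no same-numbered Input pair did. These correlations therefore cannot show that the numbers pair the libraries, and the labels give no pairing. Within a condition, deviations of same-numbered Input and RPF libraries correlated at 0.02, 0.02 and -0.01 in siControl. In siIGF2BP3 they correlated at -0.23, -0.14 and -0.12. A block for each condition and replicate number is therefore a setting, not a known shared culture. Alternatives were DESeq2 1.42.0, RLE and upper-quartile factors, no filter, at least 5 CPM, protein-coding genes, blocks, length offsets (span 0.3), limma 3.58.1 on log2 ratios (pseudocount 0.5), pseudogene counts added, and each library left out.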

Additional observations from a re-analysis of the deposited data

Results flagged for a closer look

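Every siIGF2BP3 Input library lay below and every siIGF2BP3 RPF library above the siControl libraries for GPX4. Groups did not overlap for 25.0% of all genes in Input and 25.7% in RPF. The RNA change passed the test (-0.25, adjusted p = 0.00359, edgeR) and the RPF change did not (0.23, adjusted p = 0.399, edgeR, and 0.07 without siIGF2BP3 RPF replicate 1). The test of that difference is the TE change, 0.47 on the log2 scale (adjusted p = 0.0934, edgeR), which missed the threshold. Without siIGF2BP3 RPF replicate 1 it was 0.32 (adjusted p = 0.00214, edgeR), a fit whose knockdown RPF libraries differed by little more than sampling noise.

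The response in RPF differed from that in Input by the interaction test for TXNIP, at -0.51 on the log2 scale (adjusted p = 0.00287, edgeR), and for SLC7A11, at 0.41 (adjusted p = 0.0218, edgeR). With limma on log2 ratios neither passed (adjusted p = 0.160 and 0.262). The SLC7A11 call was also lost with siControl RPF replicates 2 and 3 summed (adjusted p = 0.0536, edgeR) and in some fits that left out 1 library.

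Pseudogenes with 0 counts in all 6 Input libraries carried footprints in all 6 RPF libraries. As a percent of the RPF counts of the parent gene these came to 8.67% for GPX1P2, 6.96% for SELENOKP2, 0.912% for SEPHS2P1 and 0.69% for SELENOTP2. Groups of 3 libraries were too small for an outlier test.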

How the results depend on the processing

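In RNA 1 member was called (5.96% of all genes), and 3 were with DESeq2 (SELENOP, GPX4, SEPHS2) and 2 with RLE or upper-quartile factors (GPX4, SEPHS2). The shares of all genes called in RNA under those 3 settings are not given here. The higher counts are therefore not read as results about the members. Leaving out 1 library gave 1 to 3, with 3 when siControl Input replicate 1 was dropped and 2 when siIGF2BP3 Input replicate 1 was. These counts are not read as results about the members either. In RPF 0 members were called under every alternative with all libraries. Leaving out 1 library gave 0 to 3, the 3 without siIGF2BP3 RPF replicate 1, also when the siControl RPF replicates 2 and 3 were summed, an alternative chosen after seeing the data. In TE 0 were called, and 1 (GPX4) with DESeq2, with the replicate block, with TMM factors over all 12 libraries and with that added alternative. The shares of all genes called in TE under those settings are not given here. That count of 1 is therefore not read as a result about the members. Leaving out 1 library gave 0 to 2, with 2 without siIGF2BP3 RPF replicate 1 and 1 without siIGF2BP3 RPF replicate 3. Over all genes the RNA calls went from 879 to 444 without siControl Input replicate 3, 487 without siIGF2BP3 Input replicate 3 and at least 603 without any other. RPF calls went from 336 to 14 with the siControl RPF replicates 2 and 3 summed, to between 11 and 70 without any 1 of the other RPF libraries, to 200 over protein-coding genes, to 674 with DESeq2 and to 3410 without siIGF2BP3 RPF replicate 1. The TE calls went from 296 to 122 with a block for each condition and replicate number and to 141 with those replicates summed. They went to 0 with limma on log2 ratios (1678 genes had an unadjusted p under 0.05) and to 1347 without siIGF2BP3 RPF replicate 1. Leaving out any other library gave between 126 and 300. RPF against Input calls in siControl went from 11618 to 17657 with no filter.

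With the replicate number as a block, the calls among members were 1 for RNA, 0 for RPF and 1 for TE. RPF against Input with a block for each condition and replicate number gave 9 in siControl and 8 in siIGF2BP3. Blocking changed no other call of a member. The shares of all genes called in these block fits are not given here, so the counts are not read as results about the members.

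SELENOP minus the median of the 9 moved from -0.11 in siControl to -0.95 per length and -0.33 with pseudogene counts, and from -0.08 to -0.86 and -0.30 in siIGF2BP3. Leaving out 1 library gave -0.18 to -0.059 in siControl, with -0.18 without siControl Input replicate 3, and -0.10 to -0.05 in siIGF2BP3.

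Some directions reversed. With 1 library left out, log2 values ran from -0.040 to 0.0012 for TXNRD1 in RNA, from -0.041 to 0.039 for SELENOP, -0.049 to 0.30 for SELENOW and -0.15 to 0.12 for SEPHS2 in RPF, and from -0.056 to 0.11 for GPX1, -0.18 to 0.16 for SELENOW and -0.0058 to 0.24 for SEPHS2 in TE. Under the added alternative they were 0.045, -0.047 and -0.15 for SELENOP, SELENOW and SEPHS2 in RPF and -0.051, -0.17 and -0.0088 for GPX1, SELENOW and SEPHS2 in TE. GPX1 TE was -0.032 with the length offset. SELENOK RPF against Input was 0.14 in siControl with pseudogene counts, past the threshold (adjusted p = 0.0456, edgeR). In siIGF2BP3 it was 0.21 with them (adjusted p = 0.00518, edgeR), 0.0057 with DESeq2, 0.0051 with RLE factors, 0.022 with upper-quartile factors, 0.0012 with siControl RPF replicates 2 and 3 summed and -0.039 to 0.047 with 1 library left out.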
